A study of Rattus norvegicus with 9 samples.

Results

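Metallothionein and antioxidant defence genes of rat liver were followed across 9 one-colour arrays. The members are 10 genes chosen by symbol, the metallothioneins Mt1 and Mt2A, the heme oxygenase gene Hmox1, the quinone reductase gene Nqo1, the glutathione synthesis genes Gclc and Gclm, the thioredoxin reductase gene Txnrd1, the superoxide dismutase gene Sod2, the catalase gene Cat and the glutathione peroxidase gene Gpx1. All 10 genes were on the array, with 12 probe sets among 15923, because Gclc and Txnrd1 have 2 probe sets each. A further probe set annotated to Mt1 together with other genes (1 probe set) was not used. All 12 probe sets lay above the detection floor, a signal of 64.3, on all 9 arrays, so all 12 were among the 13535 tested. Total RNA of whole liver was measured in 3 groups of 3 arrays. By their titles, Sham-Sham is the control with both procedures sham, Sham-CLP had CLP without a burn, and Burn-CLP had both injuries. CLP is left unexplained in the titles; the usual reading is cecal ligation and puncture, a rodent model of abdominal infection. Strain, age, burn size and sampling times are not given in the sources used here. Nothing says that each array had its own animal, so the p-values cover the spread among these arrays alone, and that spread may be technical. In whole liver, fewer cells of a type and less RNA per cell cannot be told apart.

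Metallothioneins are small, cysteine-rich proteins that bind zinc and copper. In liver their genes are switched on by metal through the zinc-sensing factor MTF1 and also by glucocorticoids and interleukin 6, which makes them part of the acute phase response. The other members deal with oxidants. The transcription factor NRF2, held back by KEAP1, drives Nqo1, Gclc, Gclm, Txnrd1 and Hmox1 through antioxidant response elements, while Sod2, Cat and Gpx1 remove superoxide and hydrogen peroxide in mitochondria, peroxisomes and cytosol.

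The 200 bases before the transcription start of the 2 metallothionein genes are printed because these neighbouring genes are the classical metal-responsive genes. Their probe sets differed in sign in Burn-CLP liver, neither passing the test. Whether the Mt1 probe set reads Mt1 transcripts well was not tested, so the difference holds for the probe sets only. Both are from the RefSeq annotation of GRCr8 and on the minus strand, Mt1 at chr19:10832976-10833175 and Mt2A at chr19:10838709-10838908. Capitals mark the metal response element core, TGCACNC or TGCGCNC, on either strand.
Mt1: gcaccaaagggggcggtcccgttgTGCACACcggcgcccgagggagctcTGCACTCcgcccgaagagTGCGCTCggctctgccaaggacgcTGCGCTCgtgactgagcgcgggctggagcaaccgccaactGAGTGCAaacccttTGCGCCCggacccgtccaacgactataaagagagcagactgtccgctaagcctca
Mt2A: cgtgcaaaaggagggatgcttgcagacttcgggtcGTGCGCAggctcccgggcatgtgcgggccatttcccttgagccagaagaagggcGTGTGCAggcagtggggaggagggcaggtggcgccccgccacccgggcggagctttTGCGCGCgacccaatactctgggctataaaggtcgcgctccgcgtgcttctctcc
The Mt1 stretch held 6 copies of the core and the Mt2A stretch 3. Over the whole supplied window, 250 bases before and 50 after the start, the counts were 6 and 4. Of 33469 such rat windows 24.2% held at least 1 copy, 0.439% held 4 or more and 0.0388% held 6 or more. The antioxidant response element core, TGACNNNGC, was searched in the same way and occurred once each (1 copy) in the windows of Mt1, Mt2A, Gclm, Sod2 and 1 of the 2 Txnrd1 starts, against 12.1% of all windows. It was not found in the windows of Nqo1, Cat, Gpx1, Gclc and the other Txnrd1 start. The Hmox1 promoter was not analysed here. The STAT site TTCNNNGAA, searched on both strands, occurred in the Gclm window and in 1 Txnrd1 window, against 8.87% of all. These matches describe letters in short windows only.

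None of the 12 probe sets (0 called) passed an adjusted p of 0.05 in any of the 3 comparisons or in the F test over the 3 groups (limma with Benjamini-Hochberg adjustment over 13535 probe sets). Their log2 differences between groups lay between -0.97 and 0.71, and the smallest adjusted p was 0.128, for Mt2A in Burn-CLP against Sham-Sham. The background share called was 0.0591% of all probe sets in Sham-CLP against Sham-Sham (0.0443% higher, 0.0148% lower), 0.746% in Burn-CLP against Sham-Sham (0.325% higher, 0.421% lower), 0.0148% in Burn-CLP against Sham-CLP (all higher) and 0.148% in the F test. At an unadjusted p under 0.05, 4 of 12 stood lower and 0 higher in Sham-CLP, against 5.9% lower, 5.83% higher and 11.7% in all among the probe sets tested. Both Txnrd1 probe sets are among these 4, and with 1 probe set per gene 3 of 10 stood lower. In Burn-CLP against Sham-Sham 2 stood higher and 4 lower, against 10%, 9.85% and 19.9% in all. In Burn-CLP against Sham-CLP 2 stood higher and 1 lower, against 3.9%, 5.19% and 9.09% in all. By the F test 6 of 12 had an unadjusted p under 0.05, against 16% of all.

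**Figure D1:**
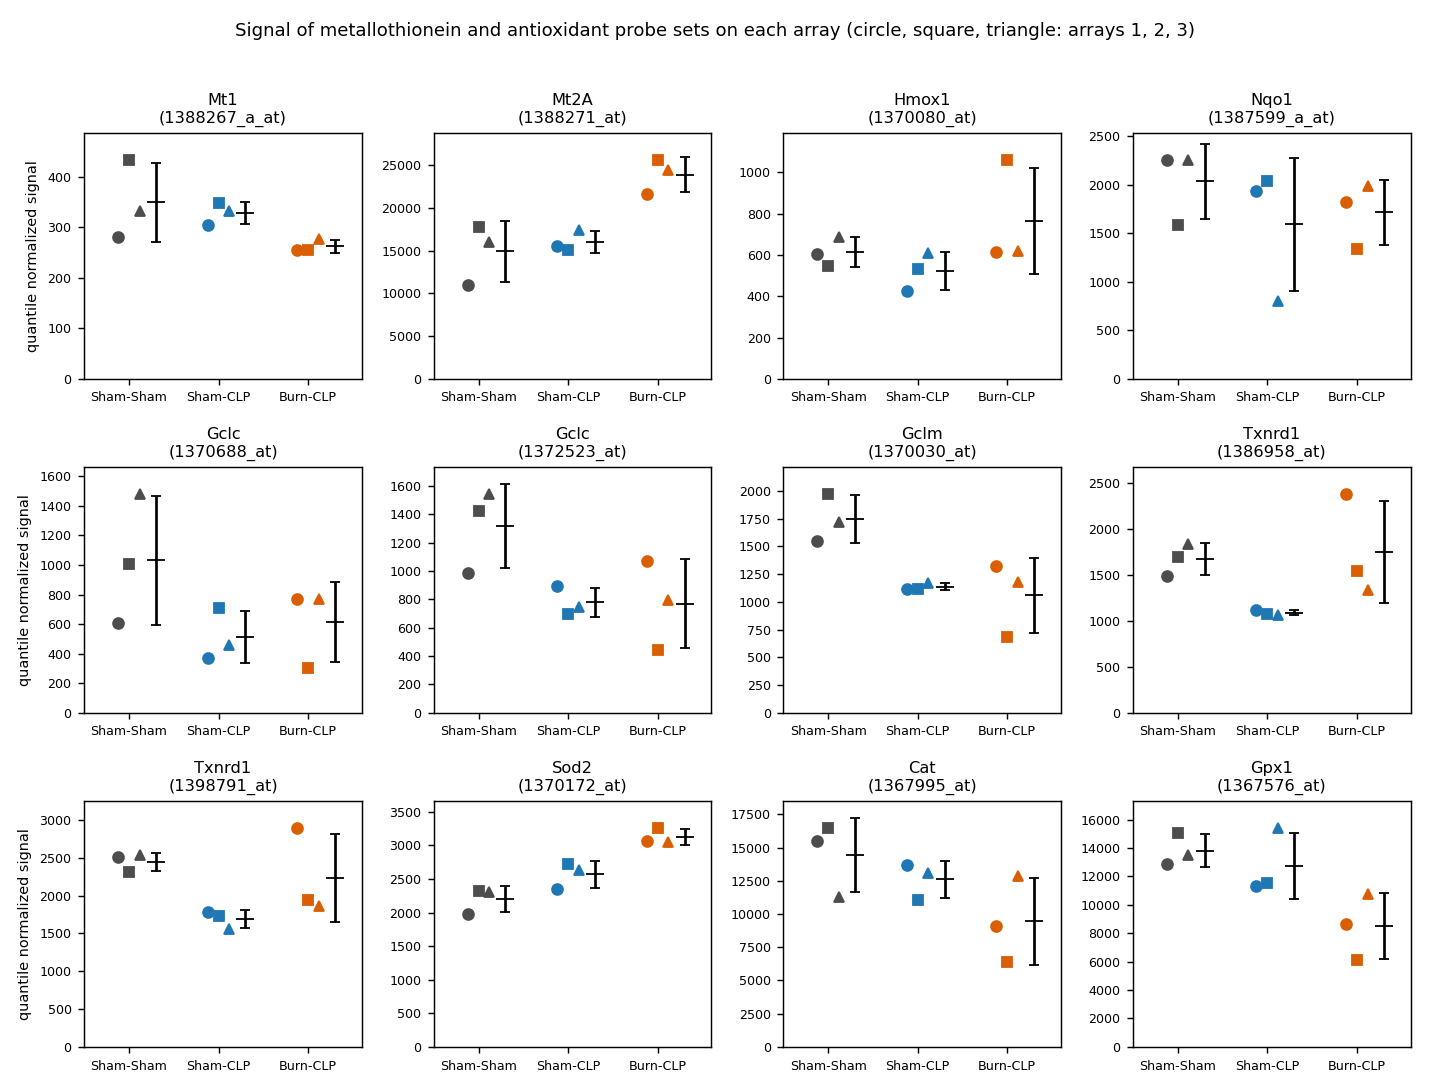
Quantile normalized signal (vertical axis, linear, from 0) of the 12 member probe sets on each array of the 3 groups; circles, squares and triangles are arrays 1, 2 and 3 of a group, and the bar beside them is the mean with 1 SD over 3 arrays. The 3 Burn-CLP arrays lie above all others for Mt2A and Sod2 and below all others for Gpx1 and Mt1, and the 3 Sham-CLP arrays lie below all others for both Txnrd1 probe sets.

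Mt2A, which with Mt1 answers zinc and acute phase signals in liver, read highest in Burn-CLP (probe set 1388271_at). Its normalized signals on arrays 1, 2 and 3 were 10961, 17809.7 and 15976 in Sham-Sham, 15508, 15018 and 17438 in Sham-CLP, and 21639.8, 25648 and 24394 in Burn-CLP. All 3 Burn-CLP arrays were above the other 6, while the other groups overlapped. Burn-CLP differed from Sham-Sham by 0.71 ± 0.21 on the log2 scale (SE, n = 3 per group, 95% confidence interval 0.24 to 1.17, limma adjusted p = 0.128), and from Sham-CLP by 0.58 ± 0.21 (interval 0.12 to 1.04, adjusted p = 0.459). Sham-CLP differed from Sham-Sham by 0.13 ± 0.21 (interval -0.34 to 0.59). Sham-Sham 1, the array least like the others, had the lowest Mt2A signal, and without it the Burn-CLP difference from Sham-Sham was 0.49 (adjusted p = 0.226). The scaling mattered too, since Burn-CLP against Sham-CLP was 0.35 with the deposited scaling and 0.20 with arrays scaled to a common median.

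Mt1, the neighbouring metallothionein gene, did not follow this order (probe set 1388267_a_at). Its signals were 281, 434 and 332 in Sham-Sham, 305, 348 and 333 in Sham-CLP, and 254, 255 and 277 in Burn-CLP. The Burn-CLP arrays were the 3 lowest, and the other groups overlapped. Burn-CLP differed by -0.39 ± 0.19 from Sham-Sham (interval -0.82 to 0.03, limma adjusted p = 0.28) and by -0.33 ± 0.19 from Sham-CLP (adjusted p = 0.65). Sham-CLP differed by -0.07 ± 0.19 from Sham-Sham. Without Sham-Sham 2, the highest array for this probe set, the Burn-CLP difference from Sham-Sham was -0.22. The deposited signals of this probe set were low, 259 to 448, where array medians ran from 205 to 268.1. Whether this probe set reads Mt1 transcripts well was not tested, and its level is not comparable with that of the Mt2A probe set.

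Hmox1 encodes the inducible enzyme that opens the heme ring and releases iron. Its probe set, 1370080_at, read 603, 544 and 689 in Sham-Sham, 425, 534 and 609 in Sham-CLP, and 613, 1061 and 617 in Burn-CLP. Only Burn-CLP 2 stood clearly above the rest; the other 2 Burn-CLP arrays lay within the Sham-Sham range. Burn-CLP differed by 0.28 ± 0.25 from Sham-Sham (interval -0.28 to 0.83) and by 0.51 ± 0.25 from Sham-CLP (interval -0.05 to 1.07, limma adjusted p = 0.575). Without Burn-CLP 2 these were 0.01 and 0.25. The macrophage marker list, summed over 5 of its 8 genes, lay between 11374 and 12331 in Sham-Sham and between 10924 and 13213 in Sham-CLP, and was 11907, 14749 and 15077 on Burn-CLP 1, 2 and 3, and none of the 5 was at the floor throughout a group. The 5 markers did not move together. From Sham-Sham to Burn-CLP the mean of Ctsb, the brightest, went from 5876 to 5276 and that of Clec4f from 1716 to 1796. The mean of Cd14 went from 2918 to 4513, that of Csf1r from 779 to 1539 and that of Cd68 from 615 to 787. The part of macrophages in the Hmox1 values was not tested.

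Gclc and Gclm encode the catalytic and modifier subunits of glutamate-cysteine ligase, the rate-limiting enzyme of glutathione synthesis, and both read lower in the CLP groups than in Sham-Sham. The Gclc probe set 1372523_at read 986, 1422 and 1544 in Sham-Sham, 891, 696 and 748 in Sham-CLP, and 1067, 444 and 794 in Burn-CLP. Sham-CLP lay wholly below Sham-Sham, while Burn-CLP 1 lay above the lowest Sham-Sham array. The differences from Sham-Sham were -0.74 ± 0.31 in Sham-CLP (interval -1.44 to -0.04, limma adjusted p = 0.411) and -0.84 ± 0.31 in Burn-CLP (interval -1.54 to -0.14, adjusted p = 0.192). The Gclc probe set 1370688_at spanned 301 to 1482 over the 9 arrays, with overlapping groups, and differed by -0.97 ± 0.44 and -0.78 ± 0.44. Its highest array was 4.92-fold over its lowest, the widest range of the 12 probe sets.

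Gclm, at probe set 1370030_at, read 1551, 1975 and 1717 in Sham-Sham, 1119, 1116 and 1172 in Sham-CLP, and 1325, 680.4 and 1176 in Burn-CLP. Every CLP array, with or without burn, lay below every Sham-Sham array. The differences from Sham-Sham were -0.61 ± 0.25 in Sham-CLP (interval -1.17 to -0.06, limma adjusted p = 0.394) and -0.77 ± 0.25 in Burn-CLP (interval -1.32 to -0.22, adjusted p = 0.15). Both comparisons share the Sham-Sham arrays. Without Burn-CLP 2, the lowest array for Gclm and for both Gclc probe sets, the Burn-CLP difference was -0.48 for Gclm and -0.49 for the Gclc probe set 1372523_at. The 2 CLP groups themselves differed by -0.15 ± 0.25 for Gclm (interval -0.71 to 0.40) and by -0.10 ± 0.31 for the Gclc probe set 1372523_at (interval -0.81 to 0.60).

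Txnrd1, which encodes the selenoenzyme that keeps cytosolic thioredoxin reduced, was lowest in Sham-CLP at both of its probe sets. Probe set 1398791_at read 2508, 2314 and 2532 in Sham-Sham, 1789, 1736 and 1564 in Sham-CLP, and 2899.8, 1939 and 1864 in Burn-CLP. Probe set 1386958_at read 1483, 1692 and 1833 in Sham-Sham, 1116, 1073 and 1067 in Sham-CLP, and 2379, 1538 and 1336 in Burn-CLP. At both, all 3 Sham-CLP arrays lay below the other 6, and Burn-CLP 1 was the highest of the 9.

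Sham-CLP differed from Sham-Sham by -0.53 ± 0.20 at the Txnrd1 probe set 1398791_at (interval -0.98 to -0.09, limma adjusted p = 0.377) and by -0.62 ± 0.22 at 1386958_at (interval -1.11 to -0.12, adjusted p = 0.362). Burn-CLP differed from Sham-CLP by 0.37 ± 0.20 (interval -0.07 to 0.81, adjusted p = 0.614) and 0.65 ± 0.22 (interval 0.15 to 1.14, adjusted p = 0.437). Burn-CLP against Sham-Sham gave -0.16 ± 0.20 and 0.03 ± 0.22. Without Burn-CLP 1 the Burn-CLP difference from Sham-CLP was 0.17 and 0.40. With arrays scaled to a common median, Sham-CLP against Sham-Sham was -0.26 and -0.39.

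Nqo1, the quinone reductase and a classical NRF2 target, showed no order among the groups. Its probe set, 1387599_a_at, read 2259.9, 1591 and 2257 in Sham-Sham, 1939, 2038 and 804 in Sham-CLP, and 1822, 1339 and 1983 in Burn-CLP. The groups overlapped throughout, and Sham-CLP 3 was the lowest of the 9 arrays. The differences were -0.45 ± 0.35 for Sham-CLP against Sham-Sham (interval -1.24 to 0.34), -0.25 ± 0.35 for Burn-CLP against Sham-Sham (interval -1.03 to 0.54) and 0.20 ± 0.35 for Burn-CLP against Sham-CLP (interval -0.58 to 0.99).

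Sod2, the manganese superoxide dismutase of mitochondria and a known target of NF-kB, read lowest in Sham-Sham and highest in Burn-CLP. Its probe set, 1370172_at, read 1977, 2324 and 2303 in Sham-Sham, 2344, 2727 and 2632 in Sham-CLP, and 3065, 3264 and 3049.6 in Burn-CLP. No 2 groups overlapped, though Sham-CLP 1 and Sham-Sham 2 were nearly equal. Burn-CLP differed from Sham-Sham by 0.51 ± 0.16 (interval 0.16 to 0.86, limma adjusted p = 0.139) and from Sham-CLP by 0.29 ± 0.16 (interval -0.06 to 0.64, adjusted p = 0.624). Sham-CLP differed from Sham-Sham by 0.22 ± 0.16 (interval -0.13 to 0.57, adjusted p = 0.581). With arrays scaled to a common median the CLP groups were nearly level, with 0.51 for Sham-CLP against Sham-Sham and 0.03 for Burn-CLP against Sham-CLP.

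Cat and Gpx1, whose enzymes break down hydrogen peroxide, read lowest in Burn-CLP. Gpx1, at probe set 1367576_at, read 12863, 15082 and 13515 in Sham-Sham, 11297, 11521 and 15430.2 in Sham-CLP, and 8653, 6147 and 10759 in Burn-CLP. All 3 Burn-CLP arrays lay below the other 6. Burn-CLP differed from Sham-Sham by -0.73 ± 0.23 (interval -1.25 to -0.21, limma adjusted p = 0.147) and from Sham-CLP by -0.60 ± 0.23 (interval -1.12 to -0.09, adjusted p = 0.483), while Sham-CLP differed from Sham-Sham by -0.13 ± 0.23 (interval -0.65 to 0.39). The Burn-CLP difference from Sham-CLP was -0.96 with arrays scaled to a common median and -0.38 without Burn-CLP 2.

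Cat, the peroxisomal catalase gene at probe set 1367995_at, read 15508, 16497 and 11297 in Sham-Sham, 13716, 11024 and 13098 in Sham-CLP, and 9088, 6374 and 12863 in Burn-CLP. Burn-CLP 1 and 2 were the 2 lowest arrays, and Burn-CLP 3 lay within the range of each other group. The Burn-CLP difference was -0.65 ± 0.27 from Sham-Sham (interval -1.25 to -0.05, limma adjusted p = 0.222) and -0.47 ± 0.27 from Sham-CLP (adjusted p = 0.642), and without Burn-CLP 2 it was -0.39 and -0.21. Sham-CLP differed from Sham-Sham by -0.18 ± 0.27.

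Red blood cells also hold much catalase and glutathione peroxidase as protein, whereas the values here are of RNA. The red cell marker list, summed over its 4 tested genes of 8 listed, spanned 12886 to 16067 over the Sham-Sham arrays, 11609 to 12774 over Sham-CLP and 10026 to 12071 over Burn-CLP and was made up mostly of Hbb, with none of the 4 at the floor throughout a group. On Burn-CLP 1, 2 and 3 the sum was 12071, 10026 and 10845. Among these arrays the Cat and Gpx1 signals were lowest on array 2 and highest on array 3. Hbb, the beta-globin gene, differed by -0.42 ± 0.16 in Burn-CLP against Sham-Sham (limma adjusted p = 0.207) and Hba-a3, an alpha-globin gene, by -0.61 ± 0.24 (adjusted p = 0.204). The other two, the red cell heme synthesis gene Alas2 and the anion exchanger gene Slc4a1, differed by -0.09 ± 0.20 and 0.07 ± 0.19. Their part in the Cat and Gpx1 values was not tested.

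**Figure D2:**
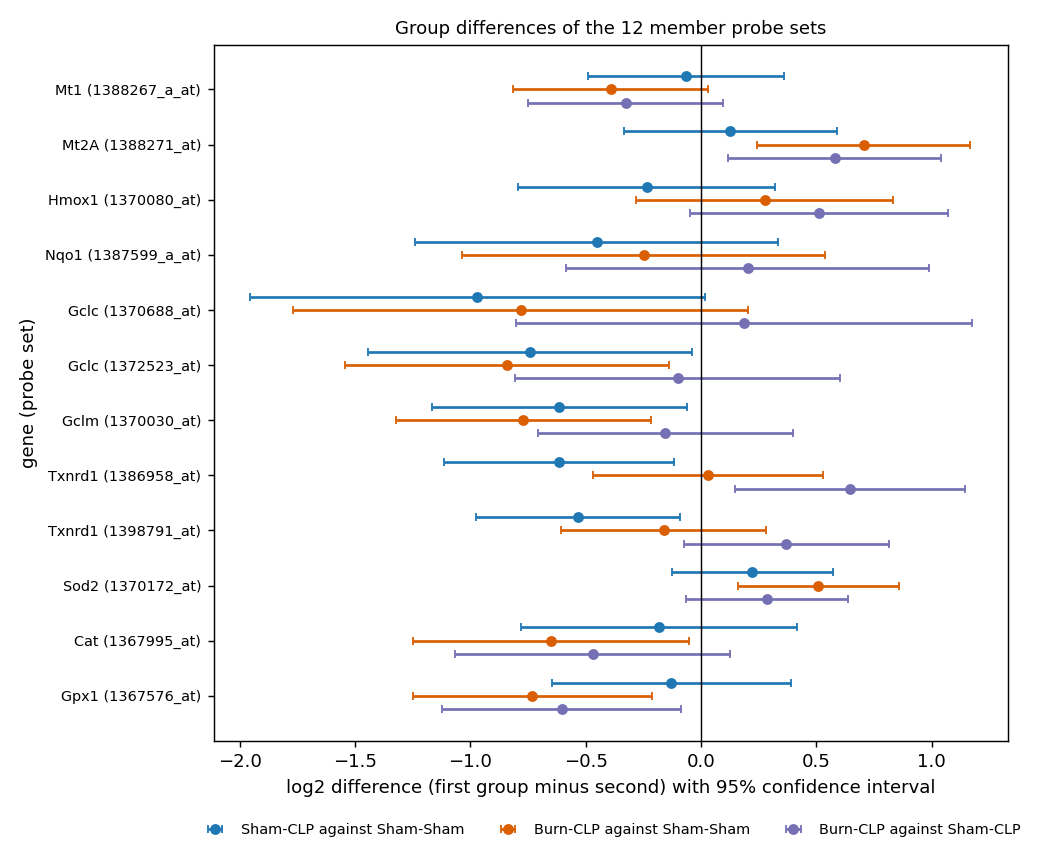
Log2 difference (horizontal axis, first group minus second) of each member probe set in the 3 comparisons, as points with 95% confidence intervals from the limma fit; the vertical line marks 0. Intervals that leave out 0 before adjustment belong to Mt2A, Txnrd1, Gpx1, Gclc, Gclm, Sod2 and Cat, and no probe set passed after adjustment.

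In the whole set, 5 of the 12 probe sets had groups without overlap in Sham-CLP against Sham-Sham (1 higher, 4 lower), as did 16.7% of all tested (8.1% higher, 8.65% lower). The count was 5 in Burn-CLP against Sham-Sham (2 higher, 3 lower; background 21.5%, or 11% higher and 10.5% lower) and 7 in Burn-CLP against Sham-CLP (5 higher, 2 lower; background 18.8%, or 9.61% higher and 9.22% lower). With 1 probe set per gene, 3 of 10 genes lay lower in the first comparison and 4 of 10 higher in the last. The median log2 difference over the 12 probe sets was -0.34, -0.32 and 0.19 in the same order of comparisons. Over 9339 genes, with 1 probe set each, the medians were 0.00, 0.00 and 0.02. Each pair of comparisons shares 1 group of arrays.

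Single arrays weighed on the Burn-CLP values. Burn-CLP 2 was the highest or lowest of the 9 arrays at 8 of 12 member probe sets, the highest for Mt2A, Hmox1 and Sod2 and the lowest for Gclm, both Gclc probe sets, Cat and Gpx1. Over all tested probe sets it was highest or lowest at 31.6%, and Sham-Sham 1 at 47.2%. The mean correlation with the other arrays was 0.908 for Sham-Sham 1, 0.938 for Burn-CLP 2 and 0.948 to 0.959 for the rest.

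**Figure D3:**
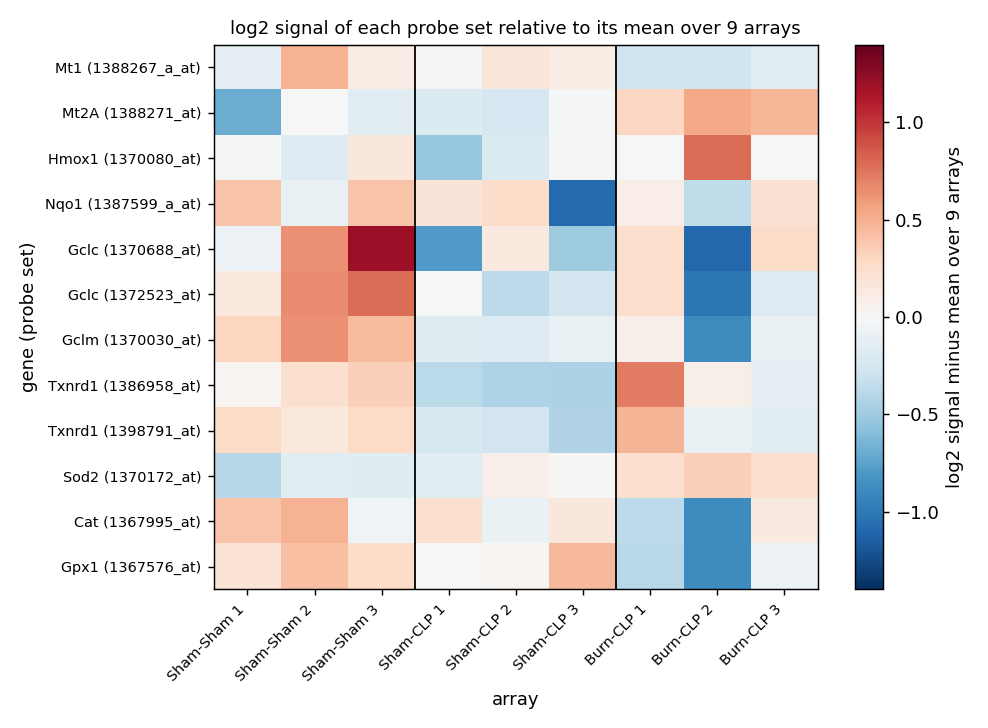
Log2 signal of each member probe set (rows) on each array (columns) minus its mean over the 9 arrays; red is above and blue below the mean, and black lines part the groups. Burn-CLP 2 is the highest array in the Hmox1 row and the lowest in the Gclm, Cat and Gpx1 rows, while the Txnrd1 rows are blue on all 3 Sham-CLP arrays.

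Related genes were read from 6 lists, using the brightest probe set of each gene. Of the NRF2 list, 17 of 21 genes were tested, and Akr7a3, an aldehyde reductase gene, was the 1 gene called in any of the 6 lists, lower in Burn-CLP than in Sham-Sham. It read 1585, 1769 and 2899.8 in Sham-Sham, 656, 584 and 628 in Sham-CLP, and 780.2, 289 and 558 in Burn-CLP, so every CLP array lay below every Sham-Sham array. It fell by 2.00 ± 0.35 on the log2 scale in Burn-CLP (limma adjusted p = 0.0419), a call that was lost in 14 of 19 alternatives with adjusted p up to 0.143, among them leaving out any 1 array but Sham-Sham 3. In Sham-CLP it differed by -1.69 ± 0.35 (adjusted p = 0.217).

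Other NRF2 targets differed without passing. Ephx1, the microsomal epoxide hydrolase gene, differed by -1.19 ± 0.35 in Burn-CLP against Sham-Sham (limma adjusted p = 0.126) and Ugdh, the UDP-glucose dehydrogenase gene, by -1.01 ± 0.32 (adjusted p = 0.147). Cbr1, a carbonyl reductase gene, differed by -0.63 ± 0.26 in Sham-CLP and Ugdh by -0.71 ± 0.32. In Burn-CLP against Sham-CLP the smallest p-values were those of the glutathione transferase gene Gsta4 (-0.60 ± 0.22), the exporter gene Abcc2 (0.77 ± 0.34) and Cbr1 (0.56 ± 0.26). In the NRF2 list, which includes regulators, 14 of 17 genes stood lower in Sham-CLP than in Sham-Sham and 12 of 17 in Burn-CLP. The medians were -0.32 and -0.19, against 0 and 0.004 over all genes. At an unadjusted limma p under 0.05, 2 stood lower and 0 higher in Sham-CLP, against 5.9% and 5.83% of all probe sets tested. In Burn-CLP 5 stood lower and 2 higher, against 9.85% and 10%. Of the regulators, Nfe2l2, the NRF2 gene, differed by 0.02 ± 0.22 in Sham-CLP and -0.14 ± 0.22 in Burn-CLP from Sham-Sham, and Keap1 by -0.12 ± 0.24 and 0.18 ± 0.24. Nfe2l1, the gene of the related factor NRF1, differed by 0.34 ± 0.20 and 0.53 ± 0.20 (interval 0.07 to 0.99 in Burn-CLP, limma adjusted p = 0.204), with no overlap between Burn-CLP and Sham-Sham. The small MAF partner genes differed by -0.32 ± 0.21 and -0.01 ± 0.21 for Mafg and by -0.04 ± 0.24 and 0.16 ± 0.24 for Mafk. These 5 regulator genes were also chosen after their values were seen.

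Of the superoxide and peroxide removal list 20 of 21 genes were tested and 0 called, with medians of 0.02, -0.01 and -0.06 in the 3 comparisons. Sod3, the extracellular superoxide dismutase gene, came nearest. It read 731, 474 and 649 in Sham-Sham, 439, 401 and 489.8 in Sham-CLP, and 289, 308 and 368 in Burn-CLP. All 3 Burn-CLP arrays lay below the other 6, and the difference from Sham-Sham was -0.93 ± 0.20 (limma adjusted p = 0.0687).

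Prdx4, a peroxiredoxin gene of the endoplasmic reticulum, read 5623, 4534 and 5233 in Sham-Sham, 5085, 5046 and 5342 in Sham-CLP, and 2545, 2023 and 3993 in Burn-CLP. Again Burn-CLP lay wholly below both other groups, by -0.90 ± 0.24 (limma adjusted p = 0.104) and -0.91 ± 0.24 (adjusted p = 0.355). Gpx2, a glutathione peroxidase gene best known from the gut, differed upward by 1.09 ± 0.31 in Burn-CLP against Sham-Sham (adjusted p = 0.113) and by 0.67 ± 0.31 in Sham-CLP. Txn2, the mitochondrial thioredoxin gene, differed by 0.40 ± 0.17 and Sod3 by -0.46 ± 0.20 in Sham-CLP. Txn1, the cytosolic thioredoxin gene, differed by -0.32 ± 0.16 in Burn-CLP against Sham-CLP.

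Of the glutathione and NADPH supply list 9 of 11 genes were tested and 0 called, with medians of 0.12 in Sham-CLP and -0.25 in Burn-CLP against Sham-Sham and -0.34 between the CLP groups. Idh1, the cytosolic isocitrate dehydrogenase that yields NADPH, read 8047, 8165 and 9588 in Sham-Sham, 7000.5, 6784 and 9786 in Sham-CLP, and 3733, 2259.9 and 6679 in Burn-CLP. Burn-CLP lay below both other groups, by -1.16 ± 0.35 (limma adjusted p = 0.133) and -1.01 ± 0.35 (adjusted p = 0.437). Enzymes of the pentose phosphate pathway differed in sign. Pgd, the phosphogluconate dehydrogenase gene, differed by 0.62 ± 0.16 in Sham-CLP against Sham-Sham (adjusted p = 0.292), and Taldo1, the transaldolase gene, by -0.29 ± 0.17 in Sham-CLP and -0.63 ± 0.17 in Burn-CLP (adjusted p = 0.111). Me1, the malic enzyme gene, differed by -0.71 ± 0.27 in Burn-CLP against Sham-Sham, and Glrx, the glutaredoxin gene, by 0.33 ± 0.22 in Sham-CLP.

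Of the zinc and copper handling list 11 of 13 genes were tested and 0 called, with medians of 0.07, -0.19 and -0.24. Slc30a1, the zinc exporter gene and a target of MTF1 like the metallothioneins, read 139.8, 609 and 832 in Sham-Sham, 660.4, 859 and 779 in Sham-CLP, and 1110.2, 1077 and 798 in Burn-CLP. Sham-Sham 1 stood far below the rest, and the groups overlapped (1.25 ± 0.55 in Burn-CLP against Sham-Sham, limma adjusted p = 0.244). Mtf1 itself differed by -0.11 ± 0.20 in Sham-CLP and 0.05 ± 0.20 in Burn-CLP, and was chosen after its value was seen. Mt3, the metallothionein gene best known from brain, was at the floor on 1 Sham-Sham, 2 Sham-CLP and 2 Burn-CLP arrays (-0.89 ± 0.37 and -0.94 ± 0.37 from Sham-Sham). Cp, the copper carrier ceruloplasmin, differed by 0.42 ± 0.19 in Sham-CLP and 0.24 ± 0.19 in Burn-CLP. Between the CLP groups the smallest p-values belonged to the copper chaperone gene Atox1 (-0.35 ± 0.22), the zinc importer gene Slc39a1 (-0.27 ± 0.18) and the copper importer gene Slc31a1 (-0.27 ± 0.19).

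Of the heme and iron handling list 9 of 12 genes were tested and 0 called, with medians of 0.12, 0.23 and 0.09. Slc40a1, the iron exporter ferroportin, differed by 0.75 ± 0.29 in Burn-CLP against Sham-Sham (limma adjusted p = 0.206) and by 0.47 ± 0.29 in Sham-CLP. Fech, the ferrochelatase that completes heme, differed by -0.65 ± 0.27 in Burn-CLP, and Hmox2, the constitutive heme oxygenase, by 0.35 ± 0.18. Hpx, the heme-binding plasma protein hemopexin, differed by 0.21 ± 0.14 and the transferrin receptor gene Tfrc by 0.41 ± 0.35 in Sham-CLP. Alas1, the first enzyme of heme synthesis, differed by 0.99 ± 0.48 between Burn-CLP and Sham-CLP (adjusted p = 0.573).

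Of the oxidant-producing list 11 of 15 genes were tested and 0 called, with medians of -0.07, -0.02 and 0.05. Por, the electron donor of the cytochromes P450, read 2097, 2371 and 1694 in Sham-Sham, 5163, 5330.2 and 1870.1 in Sham-CLP, and 7170.3, 7963 and 2907 in Burn-CLP. Array 3 was the lowest of each group, and Burn-CLP lay wholly above Sham-Sham (1.43 ± 0.47, limma adjusted p = 0.154). The monoamine oxidase genes Maob and Maoa differed by -0.59 ± 0.25 and -0.44 ± 0.17 in Burn-CLP against Sham-CLP, and Maob by -0.79 ± 0.25 in Burn-CLP against Sham-Sham (adjusted p = 0.147). Uox, the urate oxidase gene, differed by 0.57 ± 0.22 in Sham-CLP. For the NADPH oxidase gene Nox4 all 3 Burn-CLP arrays lay at the floor, so its fitted difference of -0.98 from Sham-Sham is no measured size. Cybb, the phagocyte NADPH oxidase subunit, differed by 0.39 ± 0.26 between the CLP groups.

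**Figure D4:**
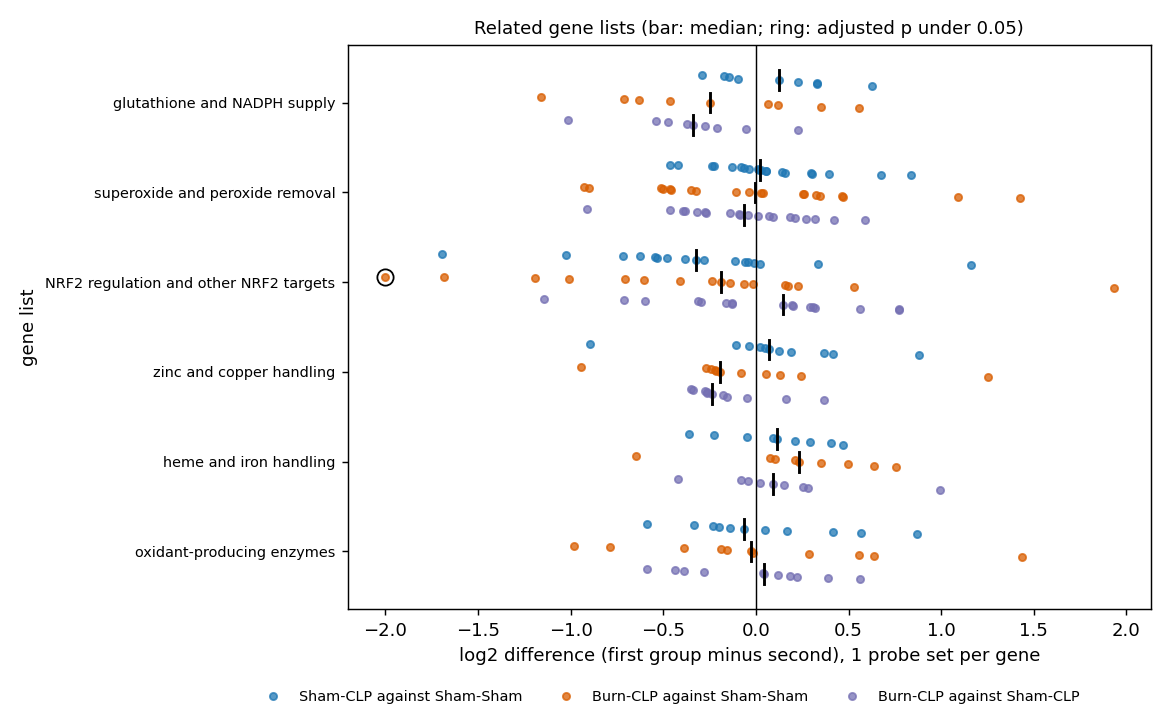
Log2 difference (horizontal axis, first group minus second) of each tested gene of the 6 related lists in the 3 comparisons, 1 point per gene, with a black bar at the list's median and a ring where the adjusted p was under 0.05. The only ring is Akr7a3 in Burn-CLP against Sham-Sham, and the list medians lie between -0.34 and 0.23.

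The liver label was checked against its markers. The hepatocyte list, 7 of 8 genes tested, summed to between 166061 and 173475 on the Sham-Sham arrays, 174171 and 178951 in Sham-CLP, and 173608 and 184321 in Burn-CLP, with no gene at the floor throughout a group. The neutrophil list, 4 of 8 tested, summed to between 307 and 447 on the Sham-Sham arrays, 372 and 538 in Sham-CLP, and 561 and 1341 in Burn-CLP. The stellate cell and fibroblast list, 7 of 7 tested, summed to between 6463 and 7132, 4591 and 6637, and 4315 and 5785 in the same order. S100a9, a neutrophil gene, rose by 2.80 ± 0.41 in Burn-CLP against Sham-Sham (limma adjusted p = 0.0239), where 2 Sham-Sham arrays lay at the floor, so the fitted size depends on the floor; it was chosen after its value was seen. The call was lost in 5 of 18 alternatives, with adjusted p up to 0.105. Its mean signal went from 45.4 to 562, which is most of the difference in the neutrophil sum. The list's other genes did not pass, with S100a8 at 1.10 ± 0.42 (adjusted p = 0.2), Cxcr2 at 0.07 ± 0.31 and Mmp8 at -0.46 ± 0.29. Sod2 and Mt2A are also made by leukocytes, and the part of such cells in their values was not tested.

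The genes whose profile over the 9 arrays came nearest to the 2 members chosen for this were found by the root mean square difference of centred log2 signals. For Mt1 they were Cog8 (0.0958), Dixdc1 (0.108), Rhou (0.108), Rras (0.109) and Nphs1 (0.111), where the median over all named probe sets was 0.399 and the profile of Mt1 itself had a root mean square of 0.234. For Hmox1 they were Apoa5 (0.13), Bloc1s2 (0.148), Wdr5 (0.149), Tox4 (0.168) and Fam89b (0.169), against a median of 0.465 and 0.334 for Hmox1 itself. These are the nearest of all named probe sets over 9 arrays, so small differences were bound to appear. Whether these genes are linked to the members was not tested.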

How the data were processed

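Per the values themselves, the authors deposited linear-scale intensity readings for each probe set, already brought to a common trimmed mean; the software and settings are not given in the sources used here. Array medians ran from 205 to 268.1, so the arrays were quantile normalized. Signals under the 20th percentile of all values, 64.3, were raised to this floor before taking log2. Probe sets above the floor on at least 3 of 9 arrays were tested, without 57 controls, 13535 in all. Groups were compared with limma 3.58.1 in R 4.3.3 (lmFit and eBayes, 1 fit of 9 arrays), with Benjamini-Hochberg adjustment over all probe sets tested and a threshold of 0.05; intervals are at 95%. With 3 arrays against 3 an exact two-sided permutation test cannot go below 0.1, so none was used. Symbols came from the platform annotation, updated to GRCr8 through Entrez identifiers for 12754 probe sets; 12783 had 1 symbol, 312 several and 2771 none. Named genes are all member probe sets, called listed genes, and up to 3 genes per list and comparison with the smallest p. Of marker lists, the genes named are all those tested in the red cell, neutrophil and macrophage lists. The members and lists were chosen with earlier results of these data known. The number of arrays limits the precision. The steps were tested on simulated data. Log2 changes of 1 were recovered at 35% in Burn-CLP against Sham-Sham and 27% in Burn-CLP against Sham-CLP. Changes of 2 were recovered at 91% and 92%. False calls were 4 of 130 and 2 of 121. All member differences were under 1 in size, so a lack of calls does not show that the members were unchanged. Alternatives changed the scaling, the floor, the filter, the groups fitted, the block, the weights, the eBayes setting and the arrays included; those for Akr7a3 and S100a9 were added after the data were seen. Replicate numbers are not said to pair arrays. Of 8 marker lists, those not given in the text, endothelium, bile duct and lymphocyte, had 0 called genes. Probe positions were not used.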

Additional observations from a re-analysis of the deposited data

How the results depend on the processing

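The count of member probe sets called stayed at 0 under 19 alternatives in each comparison, and 18 for the F test, except that an intensity trend with robust eBayes called 1, Mt2A in Burn-CLP against Sham-Sham (0.71, adjusted p = 0.0436). Leaving out each array gave 0 in all 4. Of 684 member values under the alternatives 665 kept direction and call, and 18 uncalled ones changed sign; the cause was not tested. In Sham-CLP against Sham-Sham the deposited scaling gave 0.048 for Cat and 0.11 for Gpx1 and median scaling gave 0.26 and 0.32; these scalings moved the median of all probe sets to -0.08 and 0.11. Array weights gave -0.066 for Mt2A there. In Burn-CLP against Sham-CLP array weights gave 0.069 for Gclc 1372523_at, and median scaling -0.003 for Nqo1. Leaving out each array in turn gave, in Sham-CLP against Sham-Sham, -0.214 to 0.104 for Mt1 (the highest without Sham-Sham 2) and -0.082 to 0.272 for Mt2A (the lowest without Sham-Sham 1). In Burn-CLP against Sham-Sham it gave -0.217 to 0.202 for Txnrd1 1386958_at, with -0.217 without Burn-CLP 1 and -0.054 when Sham-Sham 1 was dropped. In Burn-CLP against Sham-CLP it gave -0.04 to 0.637 for Gclc 1370688_at (negative on dropping Burn-CLP 1, Burn-CLP 3 or Sham-CLP 1), -0.384 to 0.251 for Gclc 1372523_at (0.251 on dropping Burn-CLP 2), -0.346 to 0.138 for Gclm (0.138 on dropping Burn-CLP 2) and -0.232 to 0.435 for Nqo1 (-0.232 on dropping Sham-CLP 3).

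Over the whole table, the 8 probe sets called in Sham-CLP against Sham-Sham became 69 with array weights, 4 with the deposited scaling, 4 with the replicate block and 4 to 347 without 1 array (347 without Sham-Sham 3, 13 without Burn-CLP 2, and 4 to 7 on dropping any other array). The 101 in Burn-CLP against Sham-Sham became 262 with array weights, 53 with a floor at the 10th percentile, 56 without a floor (pseudocount 16), 13 in a fit of 2 groups, 59 with the replicate block, 317 with the trend, and 19 to 645 without 1 array (645 without Sham-Sham 3, 221 without Burn-CLP 3, 75 without Sham-CLP 3, and 19 to 42 on dropping any other array). The 2 in Burn-CLP against Sham-CLP became 0 with probe sets above the floor on all 9 arrays, 47 with array weights, 1 with the deposited scaling, 4 with the lower floor, 4 without the filter, 1 without a floor, 0 in a fit of 2 groups, 0 with the replicate block, 10 with the trend, and 0 to 36 without 1 array (36 without Burn-CLP 3, 9 without Sham-Sham 3, and 0 or 1 on dropping any other array). Deviations from the group means correlated at -0.0261 to 0.0806 for same-numbered arrays and at -0.0725 to 0.0366 for differently numbered ones. The highest values, such as 0.0806, 0.077 and 0.0606, all belonged to same-numbered arrays. All values were small, and whether the numbers pair the arrays was not tested. The replicate block changed no member's call.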
